A study of Homo sapiens with 6 samples.

Results

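The 175 genes described here are pseudogenes of cytosolic ribosomal proteins that were detected in a lung cancer cell line. They were taken from the authors' deposited table of 25287 genes by symbol: the name of a ribosomal protein gene followed by P and a number, with a mean normalized count of at least 20 over the libraries. Of 374 genes with such a symbol, 176 reached that count. RPS19BP1, which has such a symbol but encodes a protein that binds RPS19, was left out, so 175 of 373 pseudogenes were kept. They derive from 57 parent genes, with 108 pseudogenes of the large subunit and 67 of the small subunit, and lie on 23 chromosomes. In GENCODE release 29, 169 of the 175 are annotated as processed pseudogenes, 4 as transcribed processed, 1 as translated processed (RPSAP56) and 1 as unprocessed. As they were selected on the mean count, the levels below describe the choice as well as what was measured.

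Total RNA was sequenced from NCI-H1299, an established line that the labels call lung adenocarcinoma, in 3 libraries with an shRNA against ALDH18A1 (shALDH18A1) and 3 with a control shRNA (shControl). ALDH18A1 encodes P5CS, the enzyme that turns glutamate into the precursor of proline and ornithine, and the series' title names P5CS as an RNA-binding protein that acts on translation. RNA was extracted with RNAiso Plus and made into TruSeq libraries that the labels' protocol calls RIP-seq, and the design text calls one of the arms puro. Neither the number of hairpins nor the origin of the 3 libraries in independent cultures is stated in the labels, so the spread behind each p-value may be technical only.

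The authors' deposited table holds 1 comparison of the 2 groups, with no values for single libraries, so spread between libraries enters only through each standard error (SE). It does not state which group is the numerator of its fold changes. In the authors' deposited table ALDH18A1 itself had a mean count of 2661 and a log2 fold change of -0.08 (SE 0.07, adjusted p = 0.471), with a 95% interval from -0.22 to 0.07 that covers 0, and so does not give the direction. Positive and negative values are therefore reported as 2 sides of the comparison, assigned to neither shALDH18A1 nor shControl, and the target does not check the labels. A gene is said to have passed where its DESeq2 adjusted p was under 0.05. For the cell line, the authors' deposited table gives mean counts of 18965 for KRT8 and 14244 for KRT18, both epithelial keratins, and 24591 for vimentin (VIM), but only 41.4 for EPCAM, 24.2 for CDH1, 5.77 for KRT19 and 4.49 for SFTPB. NKX2-1, a lung adenocarcinoma marker, was not analysed here. Markers of other cells in the authors' deposited table had mean counts of 12.8 for PTPRC (blood), 116 for PECAM1 (endothelium) and 95.8 for COL1A1 (fibroblasts).

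Ribosomal proteins assemble with ribosomal RNA into the large (RPL) and small (RPS) subunits, and their mRNAs are among the most abundant in growing cells. Such mRNAs have been copied back into the genome many times by retrotransposition, which leaves processed pseudogenes without introns, often on another chromosome than the parent. Most lack a promoter of their own and carry point mutations, deletions or early stops, but some are transcribed from a promoter near the insertion. Because a young copy is nearly identical to its parent's mRNA, a short read from the parent can align to the copy equally well.

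The sequences below show how far such copies had diverged from their parents, from identical copies to those with most differences among the genes that the results turn on. They are coding bases from the transcripts of GENCODE release 29 (GRCh38), 5′ to 3′ on the strand of the gene, in lower case, with capitals in a pseudogene where its base differs from the parent's in the alignment. RPL41, the smallest ribosomal protein of the large subunit, is shown over its 75 coding bases before the stop, with RPL41P1 (chr20:21755270-21755350, plus strand), the pseudogene with the highest mean count. RPL21 is shown over its first 90 coding bases with RPL21P16 (chr10:120354701-120355183, minus strand), whose whole transcript of 483 bases occurs unaltered within its parent's. Those bases cover 59.3% of the parent transcript in the alignment.
RPL41: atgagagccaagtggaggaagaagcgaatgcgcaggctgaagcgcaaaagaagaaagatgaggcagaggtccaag
RPL41P1: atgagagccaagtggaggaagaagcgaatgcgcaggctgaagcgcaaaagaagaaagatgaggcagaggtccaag
RPL21: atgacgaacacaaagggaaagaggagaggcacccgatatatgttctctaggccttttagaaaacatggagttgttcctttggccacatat
RPL21P16: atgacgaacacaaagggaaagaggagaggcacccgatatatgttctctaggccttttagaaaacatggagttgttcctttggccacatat

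The next set shows pairs of pseudogenes of the same parent whose fold changes stood far apart. RPLP0 encodes the central protein of the ribosomal stalk, and its bases 655 to 744 are given with RPLP0P9 (chr5:166382305-166382599, plus strand) and RPLP0P2 (chr11:61615036-61639449, plus strand), which differ from it at 0 and 7 of the 90 bases. RPSA encodes a small-subunit protein also known as the laminin receptor precursor, and its bases 125 to 214 are given with RPSAP12 (chr12:68552995-68553882, minus strand) and RPSAP52 (chr12:65758020-65826997, minus strand), which differ at 3 and 8 bases. RPL13A encodes a large-subunit protein that is also known for silencing mRNAs after interferon-gamma, and its first 90 bases are given with RPL13AP5 (chr10:96750288-96750899, plus strand) and RPL13AP20 (chr12:12875499-12876107, plus strand), which differ at 0 and 2 bases.
RPLP0: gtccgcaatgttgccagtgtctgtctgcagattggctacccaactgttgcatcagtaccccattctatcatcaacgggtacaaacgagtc
RPLP0P9: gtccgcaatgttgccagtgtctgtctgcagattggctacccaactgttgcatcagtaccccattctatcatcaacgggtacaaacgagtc
RPLP0P2: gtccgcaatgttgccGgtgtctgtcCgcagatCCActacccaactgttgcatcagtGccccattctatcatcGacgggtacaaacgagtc
RPSA: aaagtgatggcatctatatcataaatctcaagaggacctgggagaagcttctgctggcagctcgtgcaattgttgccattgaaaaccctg
RPSAP12: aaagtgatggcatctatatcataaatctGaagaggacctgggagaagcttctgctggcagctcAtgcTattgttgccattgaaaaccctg
RPSAP52: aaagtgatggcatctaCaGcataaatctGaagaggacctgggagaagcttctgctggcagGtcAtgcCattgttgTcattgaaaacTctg
RPL13A: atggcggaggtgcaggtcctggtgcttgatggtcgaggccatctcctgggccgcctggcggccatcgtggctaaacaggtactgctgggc
RPL13AP5: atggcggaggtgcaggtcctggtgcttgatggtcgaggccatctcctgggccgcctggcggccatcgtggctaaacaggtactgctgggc
RPL13AP20: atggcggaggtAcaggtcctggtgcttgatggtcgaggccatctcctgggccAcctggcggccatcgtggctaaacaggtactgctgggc

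In the authors' deposited table the 175 pseudogenes had mean counts of 20.02 to 6986 with a median of 83.3. Their summed mean count was 59858, or 0.139% of the table's, and the 150 with a parent in the table held 5.96% of their parents' summed count. The signal was concentrated: 11 pseudogenes had mean counts of at least 1000, 92 were under 100, and the 12 highest held 51.9% of the sum. Per the authors' deposited table, 51 of the 175 passed, 49 on the negative side and 2 on the positive side, against a background of 42.4% called among all genes (21.5% on the negative side and 20.9% on the positive). The pseudogenes' share was 29.1%, and among the genes that reached a mean count of 20 it was 62.8% (32.3% on the negative side and 30.4% on the positive). The log2 fold changes of 143 of the 175 lay below 0, with a median of -0.33 and a median SE of 0.30 in the authors' deposited table, while the median of all genes that reached this count was -0.01.

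The share that passed followed the mean count. From the authors' deposited table, 8 of 65 pseudogenes with mean counts of 20 to 50 passed (12.3%, all genes in that range 26.1%), as did 16 of 57 from 50 to 200 (28.1%, all genes 50.8%), 19 of 42 from 200 to 1000 (45.2%, all genes 68.0%) and 8 of 11 from 1000 (72.7%, all genes 83.3%). Over both sides together, the pseudogenes' share in each range was below that of all genes in the same range. On the negative side alone it was not below: 7 of 65, 15 of 57, 19 of 42 and 8 of 11 pseudogenes passed there. Among all genes in these ranges, 274 of 2740, 642 of 3284, 1412 of 4295 and 2855 of 5706 did. On the positive side 1, 1, 0 and 0 pseudogenes passed, and 442, 1026, 1510 and 1896 of all genes. The median SE of the pseudogenes in the lowest range was 0.47 log2 units in the authors' deposited table, against 0.10 in the highest, so at the lowest counts only large differences could pass. The plot of fold change by mean count shows these 2 ends.

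**Figure D1:**
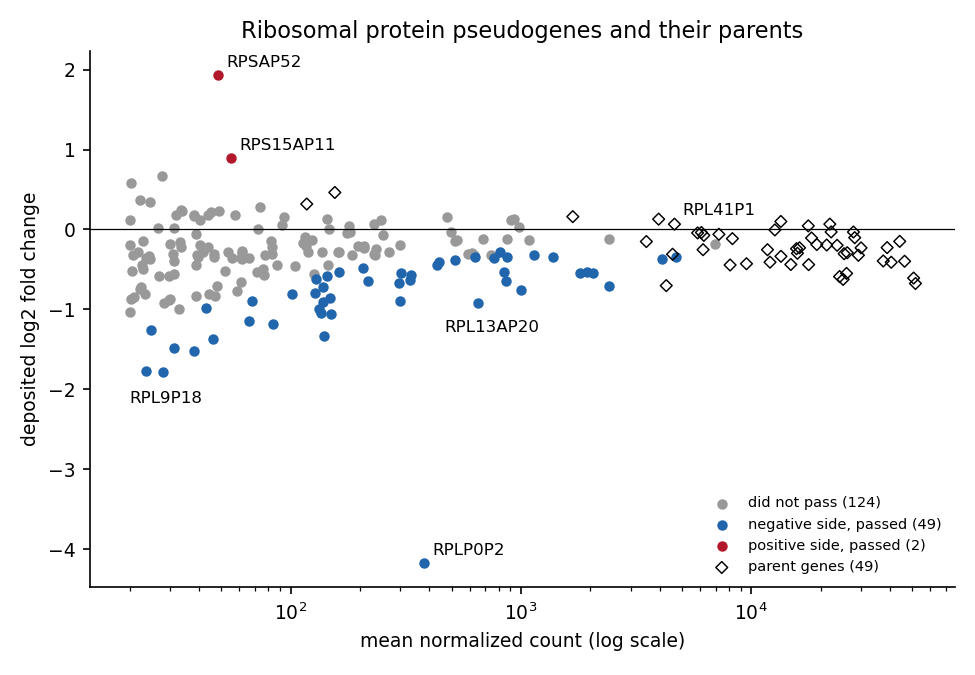
Deposited log2 fold change (y axis) against mean normalized count (x axis, log scale) for the 175 pseudogenes (filled points, coloured by whether they passed an adjusted p of 0.05) and their 49 analysed parents (open diamonds). RPLP0P2 at -4.17 and RPSAP52 at 1.93 stand apart, and the 11 pseudogenes with mean counts of at least 1000 all lie below 0.

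The pseudogenes with the highest counts had fold changes close to those of their parents. RPL41P1, 81 bases long with every 50-base window present in RPL41, had a mean count of 6986 and a log2 fold change of -0.19 (SE 0.09, adjusted p = 0.0788) per the authors' deposited table, and RPL41 had a mean count of 23600 and -0.20 (SE 0.16). RPL7P9, a copy of the large-subunit gene RPL7, had -0.35 (SE 0.07, mean count 4734) in the authors' deposited table, where RPL7 had -0.39. RPL13P12 had -0.37 (SE 0.10, mean count 4096) in the authors' deposited table, and its parent RPL13 had -0.41. Both pseudogenes passed, RPL41P1 did not, and each pair differed by less than 0.05 log2 units. RPS3AP6, from the small-subunit gene RPS3A, had -0.71 (SE 0.09, mean count 2419) in the authors' deposited table and RPS3A had -0.70.

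A further 4 copies gave the same picture on either side of the threshold. RPL14P1 (mean count 2052) had -0.55 and RPL14 -0.44 in the authors' deposited table. RPLP0P9 (mean count 1803), a fragment of 295 bases, had -0.55 and RPLP0 -0.61 in the authors' deposited table. RPL13AP5 (mean count 2418) did not pass at -0.12 (SE 0.11) in the authors' deposited table, where RPL13A was at -0.10 (SE 0.08) and did not pass either. RPL21P16, the identical copy shown above, had -0.34 (SE 0.11, mean count 1381, adjusted p = 0.00532) per the authors' deposited table and RPL21 had -0.43 (SE 0.09).

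The other 4 of the 12 highest were less alike or had no parent to compare. RPS23P8 (mean count 1144) passed at -0.32 (SE 0.13) in the authors' deposited table, where RPS23 had -0.15 (SE 0.09). RPS2P55 (mean count 1086) had -0.13 (SE 0.12) in the authors' deposited table and its parent RPS2 had -0.40 (SE 0.07), a difference of 0.27 with an interval from -0.01 to 0.54. RPSAP12 (mean count 998) had -0.76 (SE 0.10) in the authors' deposited table and RPSA -0.62 (SE 0.07). RPL15P3 (mean count 1928) had -0.53 (SE 0.08) in the authors' deposited table, and its parent RPL15 was not analysed here.

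Shared sequence was measured as the share of a pseudogene's 50-base windows that occur unaltered in the parent's GENCODE transcripts, since a read within such a window cannot be told apart by its bases. Identity to the parent over the aligned part ranged from 72.1% to 100% with a median of 95.2%, and 161 of the 175 aligned over at least 99% of their length. The median length was 509 bases, from 81 to 3525. In 20 pseudogenes at least 50% of the windows were shared, in 74 from 10% to under 50%, and in 81 under 10%, among which 12 shared none. These classes hold for 50 bases only, and read length was not given. RPL14P1 shared 60.7% of windows at 50 bases, 33.5% at 100 and 11.3% at 150, while RPL21P16 shared 100% at each.

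Mean count and shared sequence went together. In the authors' deposited table the median mean count was 957 for the 20 pseudogenes with at least 50% of windows shared, 146 for the 74 between and 40.4 for the 81 under 10%. Of the 11 pseudogenes with mean counts of at least 1000, 9 were among the 20. Across the 175 genes, which come from the same 6 libraries and are not independent replicates, Spearman's rho of mean count with the share of windows was 0.68, with identity 0.63 and with length 0.08. With the parent's mean count it was 0.10 over 150 pairs. Whether reads from the parents entered the pseudogenes' counts was not tested, and how reads with several matching places were counted was not given in the sources used here. Of the pseudogenes, 9 of the 20, 27 of the 74 and 13 of the 81 passed on the negative side in the authors' deposited table, and both that passed on the positive side were among the 81. Over all genes with mean counts of at least 20, 32.3% passed on the negative side and 30.4% on the positive. As the share that passes also follows the mean count, shared sequence and depth cannot be told apart in these counts.

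**Figure D2:**
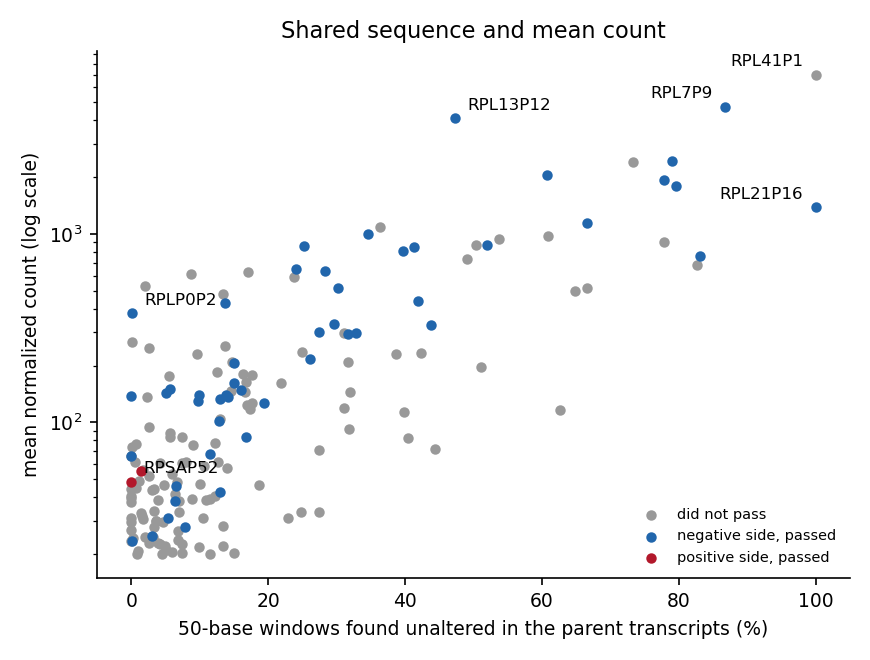
Mean normalized count (y axis, log scale) against the percentage of a pseudogene's 50-base windows found unaltered in its parent's transcripts (x axis), 1 point for each of the 175 pseudogenes, coloured by whether it passed. Counts climb with shared sequence, while RPLP0P2 with a mean count of 379 and 0.12% of windows shared lies at the upper left.

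Some copies with little shared sequence were nonetheless well counted. RPS18P12, from a small-subunit gene, shared 8.78% of windows and had a mean count of 611 and a log2 fold change of -0.29 (SE 0.13) in the authors' deposited table, where RPS18 had -0.29 (SE 0.09). RPS19P1 shared 2.08% and had a mean count of 529 and -0.13 (SE 0.15) in the authors' deposited table, where RPS19 had -0.15 (SE 0.09). RPL37AP1 shared 2.61% and had a mean count of 247 and 0.11 (SE 0.19) in the authors' deposited table, where RPL37A had 0.05 (SE 0.09). None of these pseudogenes passed, and each lay within 0.07 log2 units of its parent. They were picked after their values were seen.

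For each of the 150 pseudogenes with an analysed parent, the parent's log2 fold change was subtracted from the pseudogene's, with a 95% interval that treats both as independent. The median difference computed from the authors' deposited table was -0.04, and the median absolute difference was 0.16. The interval left out 0 in 13 of 150 pairs (8.67%), in 12 with the pseudogene below its parent and in 1 with it above. For other processed pseudogenes with a parent in the table the count was 31 of 360 (8.61%), 19 below and 12 above. As the estimates share libraries and may share reads, the interval is approximate, and no p is given. Of the 43 pseudogenes with an analysed parent that passed on the negative side, 36 had a parent that passed on that side and 7 a parent that did not pass in the authors' deposited table. Of the 105 that did not pass, 57 had a parent that passed on the negative side and 48 a parent that did not pass. The 2 that passed on the positive side had 1 parent of each kind. A parent on the negative side was therefore common whether or not the pseudogene passed.

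Closeness to the parent also varied with shared sequence and count. Across the 150 pairs in the authors' deposited table, fold changes of pseudogene and parent had a Pearson's r of 0.41 and a Spearman's rho of 0.56, as a description over genes that share libraries. Without RPLP0P2 and RPSAP52, r was 0.51. Spearman's rho was 0.94 over the 18 pairs with at least 50% of windows shared, 0.66 over the 65 between and 0.49 over the 67 under 10%. The interval left out 0 in 0, 3 and 10 of these. Precision differs too: the median SE of the difference was 0.15, 0.23 and 0.42 log2 units in these groups, so correlation, shared sequence and depth move together and cannot be told apart here.

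**Figure D3:**
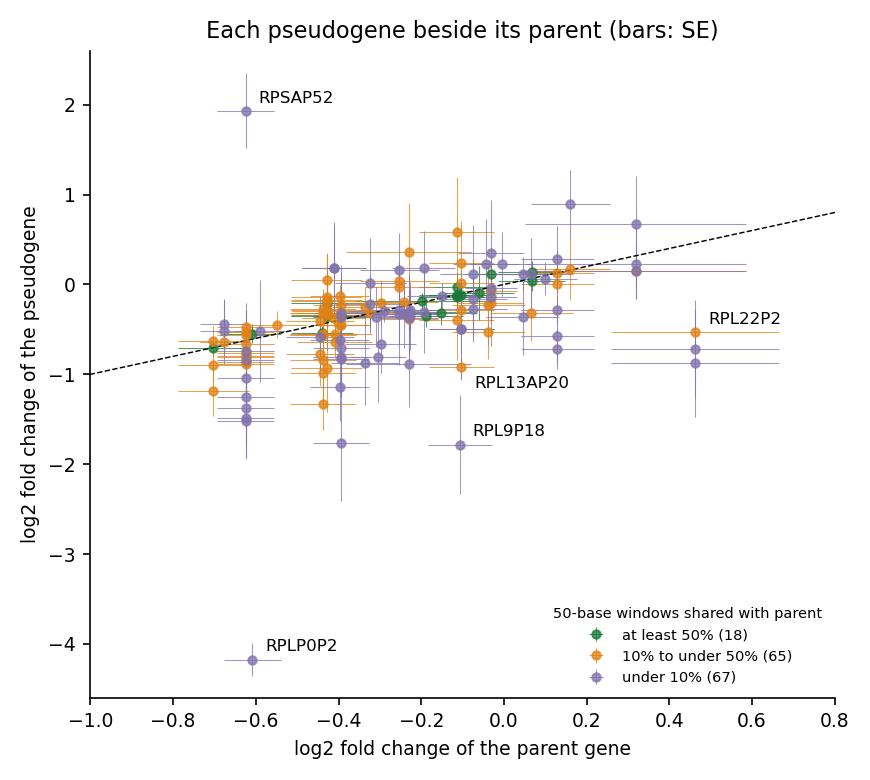
Log2 fold change of each of 150 pseudogenes (y axis) against that of its parent gene (x axis), with bars of 1 SE, coloured by the share of 50-base windows found in the parent, and a dashed line of equality. The 18 pairs with at least 50% of windows shared lie along the line, and RPLP0P2 and RPSAP52 lie farthest from it.

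RPLP0P2 stood farthest from its parent. It had a mean count of 379 and a log2 fold change of -4.17 (SE 0.18, adjusted p = 7.4e-113) per the authors' deposited table, an 18.1-fold difference between the groups, whereas RPLP0 had -0.61 (SE 0.07). The difference from the parent was -3.57, with an interval from -3.95 to -3.18. Its GENCODE transcript of 3525 bases aligned to RPLP0 over 31.2% of its length at 93.9% identity, it shared 0.12% of its windows with RPLP0 and 2.04% with any gene, and no other gene overlapped its exons. Its longest frame held 318 codons, against 317 in RPLP0, a comparison of length only. The listed genes on either side in the authors' deposited table were SYT7, a synaptotagmin, at 0.77 (SE 0.41), and DAGLA, a diacylglycerol lipase, at -0.68 (SE 0.19, adjusted p = 0.00123), 33888 and 40984 bases away. SYT7, with a mean count of 37.6, lies on the opposite strand and DAGLA on the same strand. Any relation of either to the pseudogene was not tested.

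RPSAP52 was 1 of 2 pseudogenes that passed on the positive side. It had a mean count of 48.4 and a log2 fold change of 1.93 (SE 0.42, adjusted p = 1.38e-05) per the authors' deposited table, or 3.81-fold, and its parent RPSA had -0.62. The difference was 2.56, with an interval from 1.73 to 3.38. It shared 0% of its windows with RPSA. RPSAP52 overlaps HMGA2, a gene of a chromatin architectural protein that is active in embryos and many tumours, on the opposite strand, and 49.7% of its exon bases lie outside other genes. HMGA2 had a mean count of 6571 and a log2 fold change of 1.44 (SE 0.06) in the authors' deposited table. Whether counting used strand was not given in the sources used here. It is therefore not known whether reads over the overlapping bases were assigned to RPSAP52, to HMGA2 or to neither. The other was RPS15AP11 (chr1:44780331-44780715, minus strand), a copy of the small-subunit gene RPS15A, with a mean count of 55.1 and 0.89 (SE 0.38, adjusted p = 0.0445) per the authors' deposited table. RPS15A had 0.16 (SE 0.09), and the interval of their difference ran from -0.03 to 1.49. Shifting all fold changes to equal summed counts in the 2 groups, which lowers each by 0.12, put RPS15AP11 at 0.77, no longer past the threshold, and RPSAP52 at 1.81, still past it.

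RPL13AP20 was the best counted of the pairs that differed. It had a mean count of 650 and a log2 fold change of -0.92 (SE 0.12, adjusted p = 8.07e-15) per the authors' deposited table, and RPL13A had -0.10 (SE 0.08). The difference was -0.82, with an interval from -1.09 to -0.55. The longest frame of RPL13AP20, 203 codons, has the parent's length, and RPL13AP20 shared 24.1% of its windows with RPL13A. It lies 14675 bases from GPRC5A, a retinoic acid-inducible orphan receptor gene, which had 1.798 (SE 0.05) on the same strand in the authors' deposited table. The listed gene on the other side of RPL13AP20, a processed pseudogene 23759 bases away, had 0.11 (SE 0.30) in the authors' deposited table. Any relation of RPL13AP20 to these neighbours was not tested. Of the RPL13A family, RPL13AP25 had -0.29 (SE 0.11, mean count 813) in the authors' deposited table and also passed, while the other 5 did not.

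Of the remaining pairs whose interval left out 0, RPL12P14, a copy of the stalk-base gene RPL12, had -1.33 (SE 0.29, mean count 140) in the authors' deposited table and RPL12 had -0.44. The nearest listed gene before it, FBLIM1, an adhesion adaptor gene 6202 bases away, was at -1.58 (SE 0.09) on the same strand in the authors' deposited table. The nearest after it, UQCRHL, 13884 bases away on the opposite strand, was at -0.12 (SE 0.17, adjusted p = 0.631) per the authors' deposited table. RPL9P18 had -1.78 (SE 0.55, mean count 27.9) and RPL9 -0.11 in the authors' deposited table. RPL7P59 had -1.77 (SE 0.64, mean count 23.5) and RPL7 -0.39 in the authors' deposited table. RPSAP55 had -1.51 (SE 0.41, mean count 38.0) in the authors' deposited table, below RPSA at -0.62. The bounds of these last 3 differences nearest 0 were -0.59, -0.12 and -0.07, so their size is poorly known.

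Copies of RPL23A and RPL22 made up the rest. RPL23AP4 (chr21:46690764-46691226, plus strand) shared 0% of its windows with RPL23A and 100% with some other gene. RPL23A encodes a large-subunit protein at the exit of the peptide tunnel, and its bases 112 to 201 are printed with those of RPL23AP4, which differ at 8 places, since each of its windows occurs in another gene and none in the parent.
RPL23A: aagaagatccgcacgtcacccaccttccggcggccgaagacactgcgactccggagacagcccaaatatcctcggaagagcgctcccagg
RPL23AP4: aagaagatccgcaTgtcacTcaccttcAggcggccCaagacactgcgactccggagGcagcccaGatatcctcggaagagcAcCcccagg

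RPL23AP4 had a log2 fold change of -0.71 (SE 0.23, mean count 138) in the authors' deposited table and RPL23A had 0.13 (SE 0.09). RPL23AP25, which also shared 100% with some other gene and 0.72% with RPL23A, had -0.57 (SE 0.31, mean count 76.6) in the authors' deposited table and did not pass. RPL23AP7 had -0.28 (SE 0.16, mean count 268) in the authors' deposited table, with 70.9% of its windows in other genes. The 3 copies of RPL22, a large-subunit protein whose loss general protein synthesis tolerates in mice, had -0.53 (RPL22P2, which passed), -0.72 (RPL22P12) and -0.87 (RPL22P11) in the authors' deposited table, where RPL22 was at 0.46 (SE 0.20) with a mean count of only 156. Of RPL22's exon bases, 49.9% lie outside other genes.

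Among the small-subunit families, most copies of RPSA and all copies of RPS3A passed. Beside the family counts here and below, 32.3% of all genes with mean counts of at least 20 passed on the negative side and 30.4% on the positive. The share that passed also followed the mean count, and the families differ in it. Of the 17 RPSA copies, 13 passed on the negative side and 1 on the positive side per the authors' deposited table. Their median was -0.81, and RPSA was at -0.62. The lowest were RPSAP55 at -1.51, RPSAP56 at -1.48 (SE 0.46) and RPSAP5 at -1.37 (SE 0.42), with mean counts of 38.0, 31.0 and 45.8 in the authors' deposited table. The 5 RPSA copies with mean counts of at least 200 lay between -0.76 and -0.48 in the authors' deposited table, on either side of the parent's value. All 4 RPS3A copies passed, from RPS3AP5 at -0.63 to RPS3AP25 at -1.18 in the authors' deposited table, with RPS3A at -0.70. RPS3A, a protein of the initiation face of the small subunit, had a mean count of 4277, of which its copies' summed count was 73.2%. Only 31.8% of RPS3A's exon bases lie outside other genes, and whether this lowered its count was not tested.

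Other small-subunit families were mixed. Of the 5 copies of RPS2, 3 passed on the negative side in the authors' deposited table: RPS2P7 at -0.34 (SE 0.12, mean count 633), RPS2P17 at -0.61 and RPS2P32 at -1.14, with RPS2 at -0.40. Of the 8 copies of the X-linked RPS4X, which was not analysed here, 3 passed, RPS4XP6 at -1.06, RPS4XP3 at -0.91 and RPS4XP11 at -0.58 in the authors' deposited table. None of the 5 copies of RPS26 passed. Their log2 fold changes were -0.11 (RPS26P6), -0.14 (RPS26P58), -0.03 (RPS26P8), -0.40 (RPS26P39) and 0.58 (RPS26P13) in the authors' deposited table, and RPS26 was at -0.11.

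**Figure D4:**
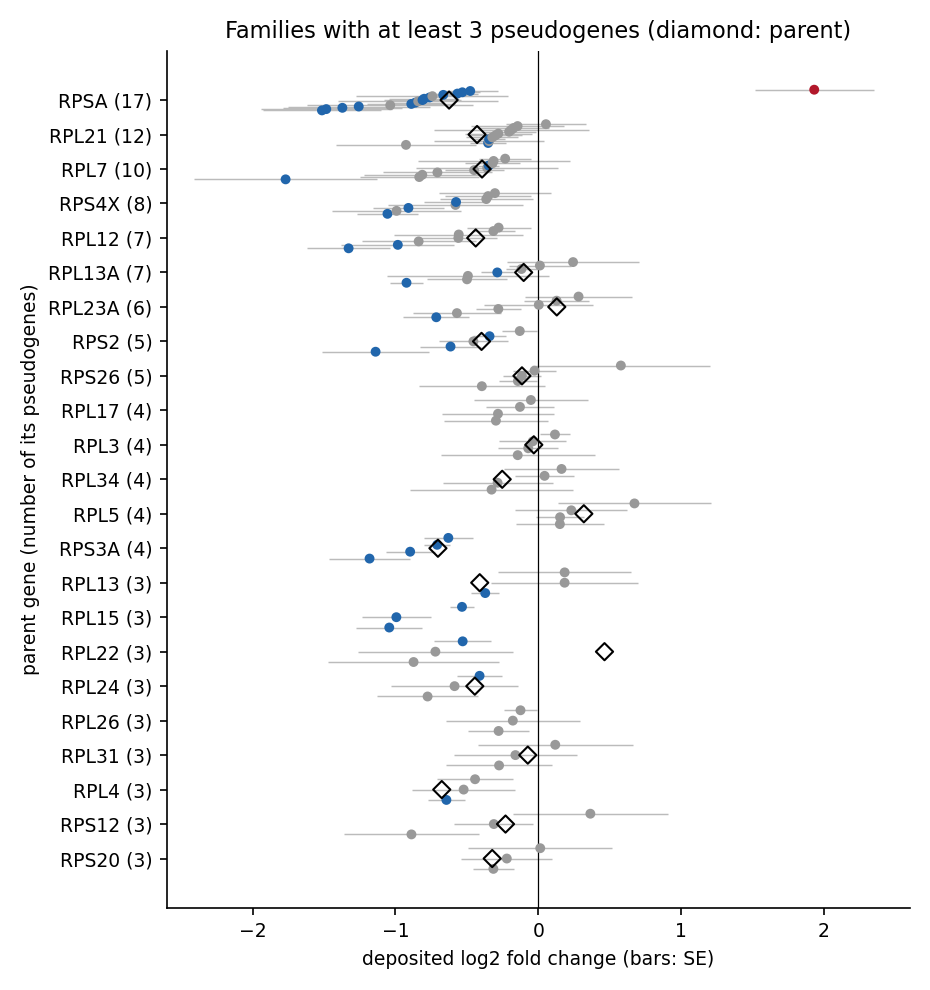
Deposited log2 fold change (x axis, bars of 1 SE) of each pseudogene in the families with at least 3, by parent gene (y axis, with the number of pseudogenes). Blue points passed on the negative side, red on the positive side and grey did not pass, and open diamonds give the parent where analysed. RPSA and RPS3A copies lie left of 0 apart from RPSAP52, and RPL5 copies lie right of 0.

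Among large-subunit families, RPL21 had 12 copies, of which RPL21P16 and RPL21P119 passed, at -0.34 and -0.35 in the authors' deposited table. The median of the 12 was -0.29, and RPL21 was at -0.43. RPL7 had 10 copies, of which RPL7P9 and RPL7P59 passed on the negative side in the authors' deposited table. RPL12 had 7 copies, of which RPL12P14 and RPL12P17 (-0.98) passed in the authors' deposited table. All 3 copies of RPL15 passed, RPL15P3 at -0.53, RPL15P2 at -1.04 and RPL15P5 at -0.99 in the authors' deposited table. RPL4P5 passed at -0.64 (mean count 864) in the authors' deposited table, beside RPL4, a tunnel protein, at -0.68.

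No copy of RPL10, RPL3 or RPL5 passed. RPL10P16 and RPL10P9, copies of a protein that joins the large subunit late in assembly, had 0.04 and 0.13 in the authors' deposited table with mean counts of 979 and 935, and RPL10 had 0.07 (SE 0.08). The 4 copies of RPL3, a protein near the peptidyl transferase centre, lay from -0.14 to 0.12 in the authors' deposited table, with RPL3 at -0.03. All 4 copies of RPL5, which binds 5S ribosomal RNA, were above 0 without passing: RPL5P34 at 0.15, RPL5P17 at 0.15, RPL5P18 at 0.23 and RPL5P3 at 0.67 in the authors' deposited table, where RPL5 was at 0.32 (SE 0.27). Under the shift to equal summed counts RPL10 and RPL10P16 would lie below 0, while RPL5 and its 4 copies would stay above. Weighted by precision, the family means had a Spearman's rho of 0.67 with the parents over 49 families, as a description over genes of the same libraries.

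Open reading frames were compared by length on the annotated transcripts, without comparing the encoded sequence with the parent's protein. In 47 of the 175 pseudogenes the longest frame that starts with ATG reached at least 90% of the codons of the parent's principal protein, and in 38 it was at least as long. In 59 it was under 50%, and the median was 62.0%. Of the 12 pseudogenes with the highest counts, 10 had a longest frame of at least 90% of the parent's length. RPL7P9 had 248 codons against 248 in its parent, RPL13P12 211 against 211 and RPS3AP6 264 against 264. RPLP0P9 had 96 against 317 and RPS23P8 28 against 143. No measurement of protein was analysed here.

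Position in the genome separated pseudogenes that were listed in the table from those that were not. GENCODE release 29 annotates 1587 ribosomal protein pseudogenes, of which 804 lie inside another gene and 783 do not. Of the 804, 2 were listed in the authors' deposited table and 1 reached the mean count of 20, against 371 and 174 of the 783. The same held for other genes: 7 of 4506 processed pseudogenes inside another gene were listed, against 1908 of 5685 not inside one, and 31 of 1581 protein-coding genes against 15404 of 18370. The cause was not tested. The 8 parents not analysed here, RPL15 and RPS4X among them, have 25 of the pseudogenes and at most 4.72% of their own exon bases outside other genes, while the 49 analysed have at least 7.24% with a median of 96.8%.

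Among the parents with under 50% of their exon bases outside other genes, the pseudogenes' counts were large beside some parents and small beside others. RPL5, with 7.24% of its exon bases outside other genes, had a mean count of 118 in the authors' deposited table, and its 4 copies together had 553% of that. RPL22's 3 copies had 131% of its count and RPS23P8 had 32.6% of that of RPS23, which has 24.8% of its exon bases outside other genes. For RPS3A, with 31.8% of its exon bases outside other genes, the 4 copies had 73.2% of its count. RPL10, with 38.4% of its exon bases outside other genes, had a mean count of 21949 in the authors' deposited table, and its 2 copies had 8.72% of that. Over all 49 parents the copies held 5.96%. Levels of pseudogene and parent are therefore not compared further, and the values are normalized counts, not divided by length. Only 6 of the 175 pseudogenes overlapped another gene. These were RPSAP52 with HMGA2, RPL3P2 in an intron of HLA-B on the opposite strand, and RPL10P16, RPL7P47, RPL23AP87 and RPL23AP2 with other transcripts. RPL3P2 had -0.07 (SE 0.21) and HLA-B, an antigen-presenting molecule's gene, 1.35 (SE 0.07) in the authors' deposited table.

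Set beside related genes, the pseudogenes' median of -0.33 compared with -0.28 for the other 579 processed pseudogenes with mean counts of at least 20 and -0.19 for the 68 cytosolic ribosomal protein genes in the authors' deposited table. Of the other processed pseudogenes 153 passed on the negative side and 76 on the positive side. Of the ribosomal protein genes 31 passed on the negative side, 4 on the positive side and 33 did not pass. Their median mean count was 14708. Of all 5706 genes with mean counts of at least 1000, 2855 passed on the negative side and 1896 on the positive. The median of those 5706 was also -0.19, so a median of -0.19 is not particular to ribosomal protein genes. Among 6 ribosomal protein paralogs whose symbols end in L, RPL26L1 (-0.74), RPL36AL (-0.25), RPS27L (-0.37) and RPL3L (-1.09) passed in the authors' deposited table, and RPL22L1 and RPL39L did not. No test of the difference between these lists was made.

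At the mean count of 20 itself, the values on each side were alike in precision. The 3 pseudogenes just above were RPL31P10 at 20.09, RPSAP11 at 20.04 and RPL21P2 at 20.02, with log2 fold changes of 0.12, -1.04 and -0.19 in the authors' deposited table. The 3 just below were RPS5P8 at 19.8, RPL39P38 at 19.6 and RPL7AP32 at 19.3, with 0.46, -0.12 and -0.95 in the authors' deposited table. The SE of these 6 lay between 0.54 and 0.66, and none passed. RPL31P10 came to -6.4e-05 under the shift to equal summed counts.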

How the data were processed

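Per the submitters' processing notes, reads of the 6 libraries were processed with fastp 0.23.2, STAR 2.7.10a, featureCounts and DESeq2 on hg38. The counting mode, use of strand, annotation, read length and depth of each library were not given in the sources used here. Per the file headers, the authors' table gives for each gene a mean over libraries of counts scaled by size factors (a signal, not raw counts), the log2 fold change and its SE in log2 units, the Wald score, and a p-value with its Benjamini-Hochberg adjusted p-value. The deposited score equalled fold change over SE, and the adjusted p-values were recomputed over the table's 25289 lines (25287 genes).

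The comparison was described as deposited, since it holds no values of single libraries and allowed no fit or test of counts. Members and gene lists were chosen with earlier results of these data known. Named genes were the 12 with the highest mean count, the 6 largest and 6 smallest log2 fold changes among those with adjusted p under 0.05, the 3 on each side of a mean count of 20, their parents and overlapping genes, and ALDH18A1. Other pseudogenes named to fill out a family, and those whose interval against the parent left out 0, were chosen after their values were seen. Symbols were matched to GENCODE release 29 (23673 matched, or 93.6%). Transcripts were aligned to the parent's with Biopython 1.88 (match 2, mismatch -3, gap opening -5, extension -2), and windows of 50 bases were compared exactly. Intervals are 95% intervals from the normal distribution. Tables were computed with Python 3.11.15 and pandas 2.3.3, and the steps were checked on simulated data.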

Additional observations from a re-analysis of the deposited data

How the results depend on the processing

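No paired analysis was possible because the deposited comparison holds no values of single libraries, and for the same reason no library could be left out. Of the 175 pseudogenes, 51 passed. Asking in addition for a log2 fold change of 1 or more in size left 13 of 175, 12 on the negative side and 1 on the positive. Among all 25287 genes, 4550 (18.0%) met both conditions. With all 175 kept, the count was between 35 and 64 under an adjusted p of 0.01, an unadjusted p and both shifts of the fold changes. Without members that overlap an exon of another gene it was 50 of 170. Other minimum mean counts changed how many genes entered: 39 of 83 passed at 100, 52 of 223 at 10 and 54 of 373 with no minimum. Of all genes with no minimum, 42.4% passed. Shares over all genes at the other p thresholds and minimum counts are not given here. Of the pairs, 13 of 150 had an interval that left out 0. A 99% interval gave 7, a mean count of at least 100 gave 6 of 73, where fewer pairs entered, and the median of the ribosomal protein genes in place of the parent gave 41 of 175, 35 below and 6 above. It was 14 at a mean count of at least 10, 12 without members that overlap an exon, and 10 of 136 with only parents of which at least 50% of exon bases lie outside other genes, an alternative chosen after seeing the data. Shifting to equal summed counts in the 2 groups lowered each log2 fold change by 0.12. It brought RPL31P10 to -6.4e-05, RPS15AP11 to 0.77, no longer past the threshold, and RPL41P1 to -0.30, now past it, and left the other 25 of 28 named pseudogenes on their side of the threshold. A shift to a median of 0 changed none of the 28. Depth per library is unknown, and pseudogenes with mean counts under 50 had a median SE of 0.47.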

Other observations

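Among the 198 ribosomal protein pseudogenes with a mean count under 20, 3 passed an adjusted p of 0.05 in the authors' deposited table. Of all genes at any count 42.4% passed, and of those with mean counts of 20 to 50, 26.1%. The share of all genes under 20 is not given here, so the 3 are not read as a result about these pseudogenes. RPL39P40, a copy of the large-subunit gene RPL39, had a log2 fold change of -2.98 (SE 0.79, adjusted p = 0.000571) at a mean count of 13.6 in the authors' deposited table, and RPL39 was at -0.06. RPL12P37 had -3.84 (SE 1.24, adjusted p = 0.00544) at a mean count of 7.51 in the authors' deposited table, and RPL12 was at -0.44. RPL14P6 had 5.18 (SE 1.77, adjusted p = 0.0097) at a mean count of 3.36 in the authors' deposited table, and RPL14 was at -0.44. At such counts the size of each rests on few reads, and all 3 were named after their values were seen.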
